A study of Mus musculus with 78 samples.

Results

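The dorsal striatum libraries of a mouse study on the enzyme ACSS2 and alcohol drinking are described here, with both deposited count tables pooled. They are the 12 of the series' 78 libraries whose titles name the dorsal striatum, 6 from Acss2 knockout (KO) mice and 6 from wild-type (WT) mice, each library from a different mouse. The table of males holds mice 1, 2 and 10 as KO and mice 3, 12 and 13 as WT. The table of females has mice 4, 5 and 6 for KO, and for WT it has 11, 23 and 24, so the table and the sex cannot be told apart. Per the labels, the KO is a constitutive deletion of Acss2 exons 3 to 7, made by CRISPR guides in the flanking introns and kept on C57BL6/J after 3 generations of backcrossing, so the gene is lost in every cell and throughout development. Every mouse, KO and WT alike, drank ethanol in the drinking in the dark model of binge-like intake. After 1 week of habituation, ethanol at 15% by volume was offered in sessions of 2 h on days 1 to 3 and 4 h on day 4, with water beside it in the opening week only. No ethanol-naive dorsal striatum is in the series, so the comparison is between genotypes of drinking mice. The fit of 6 KO against 6 WT libraries with the table as a covariate was repeated without male KO mouse 10 and female WT mouse 23, whose libraries carried cortical transcripts and few striatal ones.

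ACSS2 joins acetate to coenzyme A and so makes acetyl-CoA, the donor of acetyl groups for histones and for lipid synthesis. Acetate is an end product of ethanol breakdown in the liver and reaches the brain through the blood. The dorsal striatum takes input from the cortex and is known for habit learning and action selection. Most of its neurons are GABA-releasing projection neurons of the direct pathway, which carry the dopamine receptor Drd1, or of the indirect pathway, which carry Drd2.

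The deleted exons are shown because they are the lesion that defines the KO group. In the transcript Acss2-201 of GENCODE M21 (GRCm38) they are exons 3 to 7 of 18, lie on chromosome 2 within 155549191 to 155550469 on the plus strand, and are coding throughout. That the exon numbers of the labels follow this transcript is an assumption. The 460 bases make up 15.7% of the 2931 bases of the transcript and 21.9% of its coding sequence, and leave a remainder of 1 when divided by 3.
exon 3, chr2:155549191-155549282: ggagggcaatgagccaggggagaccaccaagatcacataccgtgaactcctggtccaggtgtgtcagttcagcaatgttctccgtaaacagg
exon 4, chr2:155549476-155549579: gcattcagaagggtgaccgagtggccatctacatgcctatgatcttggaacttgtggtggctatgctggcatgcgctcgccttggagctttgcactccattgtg
exon 5, chr2:155549799-155549871: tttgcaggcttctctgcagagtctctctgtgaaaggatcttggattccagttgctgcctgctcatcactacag
exon 6, chr2:155550103-155550178: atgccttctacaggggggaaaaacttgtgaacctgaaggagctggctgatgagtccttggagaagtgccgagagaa
exon 7, chr2:155550355-155550469: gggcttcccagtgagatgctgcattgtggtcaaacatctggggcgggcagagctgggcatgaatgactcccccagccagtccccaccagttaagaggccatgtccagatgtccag

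Acss2 itself (ENSMUSG00000027605.18, chromosome 2, 155517948 to 155585724) was low in every KO library. In CPM, counts scaled to a library total of 1000000, it ranged from 5.10 to 7.82 with a median of 7.22 over the 6 KO libraries, and from 35.9 to 73.8 with a median of 48.3 over the 6 WT libraries. The lowest KO library was male mouse 2, the highest WT library was female mouse 23, and the ranges were far apart. By group, the mean was 6.43 ± 1.36 CPM in male KO, 7.35 ± 0.250 in female KO, 44.2 ± 7.37 in male WT and 56.7 ± 15.5 in female WT mice (SD, n = 3 each).

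The pooled fit put the KO at 13.9% of the WT level, a log2 fold change of -2.85 ± 0.16 (SE, 95% interval -3.20 to -2.50, adjusted p = 9.35e-06 by edgeR's quasi-likelihood test with Benjamini-Hochberg adjustment). Without mice 10 and 23 it was -2.80 ± 0.13 (adjusted p = 1.88e-06, edgeR). Within the tables, fitted with the spread of all 12 libraries, it was -2.74 ± 0.23 in males and -2.96 ± 0.23 in females, and the difference between them of 0.23 (95% interval -0.47 to 0.92, edgeR adjusted p = 0.871) was not past the threshold. The remaining KO reads, 35 to 53 per library, cannot be placed on exons because the counts are per gene. Of the other regions of these mice, 3 were fitted here, the amygdala with 6 KO and 5 WT libraries and the rest with 6 of each. They gave log2 fold changes of -2.87 ± 0.25 in the ventral striatum, -2.82 ± 0.15 in the amygdala and -2.94 ± 0.16 in the dorsal hippocampus.

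**Figure D1:**
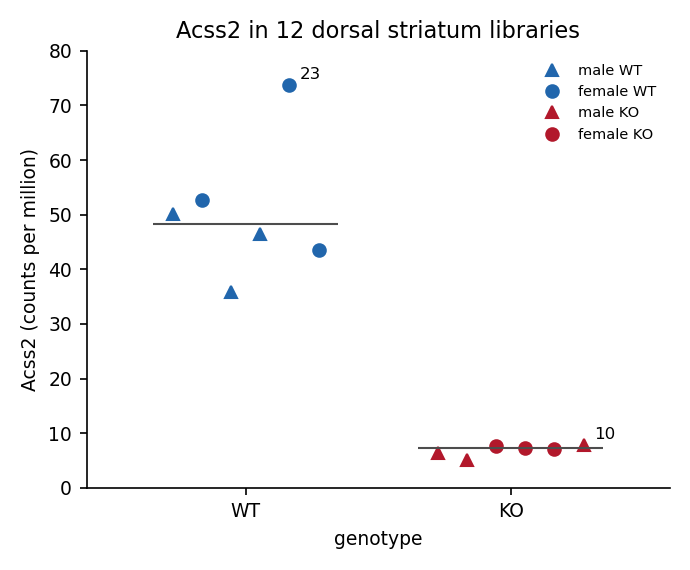
Acss2 in CPM for each dorsal striatum library, by genotype, with triangles for males, circles for females and a line at each group's median. The 6 KO libraries lie between 5.10 and 7.82 and the 6 WT libraries between 35.9 and 73.8, with mice 10 and 23 numbered.

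Acss2 was the only gene of 13824 tested that passed an adjusted p of 0.05 in the pooled fit, which is 0.00723% of genes tested. It was lower in KO, and no gene was called higher. DESeq2's Wald test also called 1 gene. At an unadjusted p under 0.05, edgeR had 208 genes, 90 higher and 118 lower in KO, which is 1.5% of those tested, and DESeq2 had 201. Without mice 10 and 23, 1 gene of 13898 was called (0.0072%), again Acss2, and 333 genes (2.4%) had an unadjusted p under 0.05. Evenly spread p-values would put 691.2 genes there in the pooled fit and 694.9 without mice 10 and 23. Both edgeR counts lay well below that, and the reason was not tested. After Acss2 the smallest adjusted p was 0.99991 with all 12 libraries and 0.99958 without mice 10 and 23.

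The intervals show how large a change these libraries left room for. The 95% interval of the log2 fold change lay within 1 on either side of 0, a factor below 2 in either direction, for 12395 genes (89.7%) in the pooled fit and for 12743 (91.7%) without mice 10 and 23. The median log2 fold change over all genes was -0.00, and the middle 50% of genes lay between -0.08 and 0.08. The libraries were scaled to each other by TMM, which centres the bulk of genes, so a median near 0 was built in. The median size of an interval to either side was 0.33, and 0.29 without the 2 mice. Total counts ran from 5842607 to 14487778 with a median of 6411488 over the 12 libraries. Male WT mouse 13 was the deepest, and the next was a KO library at 7217052.

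Marker genes described the libraries beside their label. Mice 10 and 23 had been set apart beforehand for their cortical and few striatal transcripts, so their scores are a description and no separate check. The 15 genes of a list shared by striatal projection neurons, among them Ppp1r1b (DARPP-32) and Pde10a, were averaged in each library as log2(CPM + 0.5) into a score. The score was 8.55 to 9.56 in 10 libraries, 6.07 in male KO mouse 10 and 5.50 in female WT mouse 23. In the 11 libraries labelled cortex it ran from 5.30 to 6.56, so mice 10 and 23 fell in the cortical range. The score of 12 cortical excitatory neuron genes was 6.45 in mouse 10 and 6.32 in mouse 23, against 1.95 to 5.14 in the other 10 and 6.29 to 6.79 in cortex.

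Single genes, also given as a description, showed the same split. Drd1 stood at 13.9 CPM in mouse 10 and 10.8 in mouse 23, with medians of 259 in KO and 241 in WT libraries. Drd2 stood at 7.20 and 0.171 CPM, with medians of 195 and 176. Slc17a7, the vesicular glutamate transporter of cortical neurons, was at 1762.5 and 1856 CPM in mice 10 and 23, with medians of 358 and 280.

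Both mice were the lowest of their genotype, outside the range of the other 10 libraries, in the scores of direct-pathway, indirect-pathway and interneuron genes. The oligodendrocyte score was also lowest there, at 7.06 and 6.83 against 7.57 to 8.60. The ventral striatum library of mouse 23 scored 8.60 for striatal and 4.17 for cortical genes, whereas that of mouse 10 scored 6.71 and 5.71. Each genotype held 1 such library, so leaving out both kept 5 against 5. In tissue RNA, fewer cells of a type and less RNA per cell cannot be told apart.

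**Figure D2:**
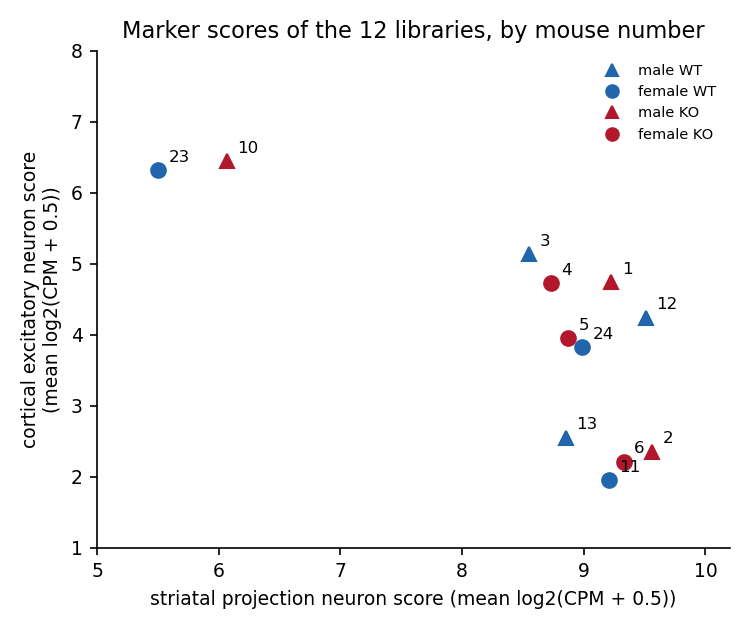
Each point is a dorsal striatum library, placed by its striatal projection neuron score and its cortical excitatory neuron score (mean log2(CPM + 0.5)) and numbered by mouse, with colour for genotype and shape for sex. Mice 10 and 23 lie at upper left, at striatal scores of 6.07 and 5.50, and the other 10 at 8.55 or above.

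The genes of the projection neurons themselves gave no call in either fit. Over the 15 shared projection neuron genes the median log2 fold change was 0.18 in the pooled fit and 0.17 without the 2 mice, where the median interval to either side shrank from 1.18 to 0.47. The pooled median rested on single libraries, since it was -0.10 without female WT mouse 23, 0.42 without male KO mouse 10 and below 0 also without 1 further library. Drd1 had 0.08 (95% interval -0.36 to 0.52), Tac1, the substance P precursor, 0.11 (-0.31 to 0.53), and Pdyn, the dynorphin precursor, -0.29 (-0.58 to 0.00) without them. In the indirect pathway, Drd2 had 0.14 (-0.36 to 0.64), the adenosine receptor Adora2a 0.15 (-0.40 to 0.70) and Penk, the enkephalin precursor, 0.07 (-0.39 to 0.54). None of these 6 genes had an unadjusted p under 0.05 in either edgeR fit.

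The male and female tables differed in sign here. In the within-table fits 13 of the 15 shared genes were lower in male KO and 15 of 15 higher in female KO. The male KO group holds mouse 10 and the female WT group mouse 23. Without mice 10 and 23 the score of the 15 genes was 9.23 and 9.56 in male KO, against 8.55 to 9.51 in male WT. In females it was 8.73 to 9.33 in KO, against 8.99 and 9.21 in WT. The part of mice 10 and 23 in the signs was not tested. Ppp1r1b stood at -0.12 in males and 0.43 in females. Neither value passed the test, and no gene passed the test of the difference between tables.

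Genes enriched in the ventral striatum had the median farthest from 0 of the 24 lists in both fits. Of the 8 listed genes, 6 passed the count filter. All 6 were lower in KO, with a median log2 fold change of -0.85 in the pooled fit and -1.14 without mice 10 and 23, beside -0.00 over all genes. Leaving out 1 library at a time moved the pooled median between -1.06 (without female WT mouse 23) and -0.42 (without female WT mouse 24). None was called. Unadjusted p under 0.05 held for 2 of the 6 in the pooled fit, where 0.854% of all genes were lower at that p, and for 4 of the 6 without the 2 mice, where 1.31% were. The members share libraries and tissue boundaries, so they are not independent of each other.

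Nts, the precursor of the peptide neurotensin, was at 0.469 to 3.88 CPM with a median of 2.5 in KO, and at 0.342 to 11.1 with a median of 5.85 in WT. Its log2 fold change was -1.39 without mice 10 and 23 (95% interval -2.04 to -0.74, edgeR adjusted p = 0.99958). Dlk1, an imprinted gene of the Notch ligand family, was at 0.626 to 9.42 CPM with a median of 6.47 in KO, and at 0.342 to 49.1 with a median of 14.9 in WT. In both genes WT mouse 23 was below every KO library, and the ranges of KO and WT overlapped with and without mice 10 and 23.

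Peg10, an imprinted gene derived from a retrotransposon, had medians of 25.8 CPM in KO and 43.1 in WT and a log2 fold change of -1.25 without the 2 mice (-2.11 to -0.39). Nnat, also imprinted, had -0.61 (-1.18 to -0.02). The score of this list was highest in female WT mouse 24 at 4.72, male WT mouse 13 at 4.15 and male WT mouse 3 at 4.00. The other WT libraries scored 3.48 in mouse 11, 2.70 in mouse 12 and 1.51 in mouse 23. The highest KO library reached 3.32, and WT mouse 12 lay below every KO library except mouse 10. The ventral striatum libraries themselves scored 4.76 to 5.98. How far the dissection boundary enters the KO and WT difference of other genes was not tested. With this score as a covariate, an alternative chosen after the data were seen, the genes at an unadjusted p under 0.05 numbered 702 in the pooled fit and 202 without the 2 mice, with Acss2 the only call in each.

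**Figure D3:**
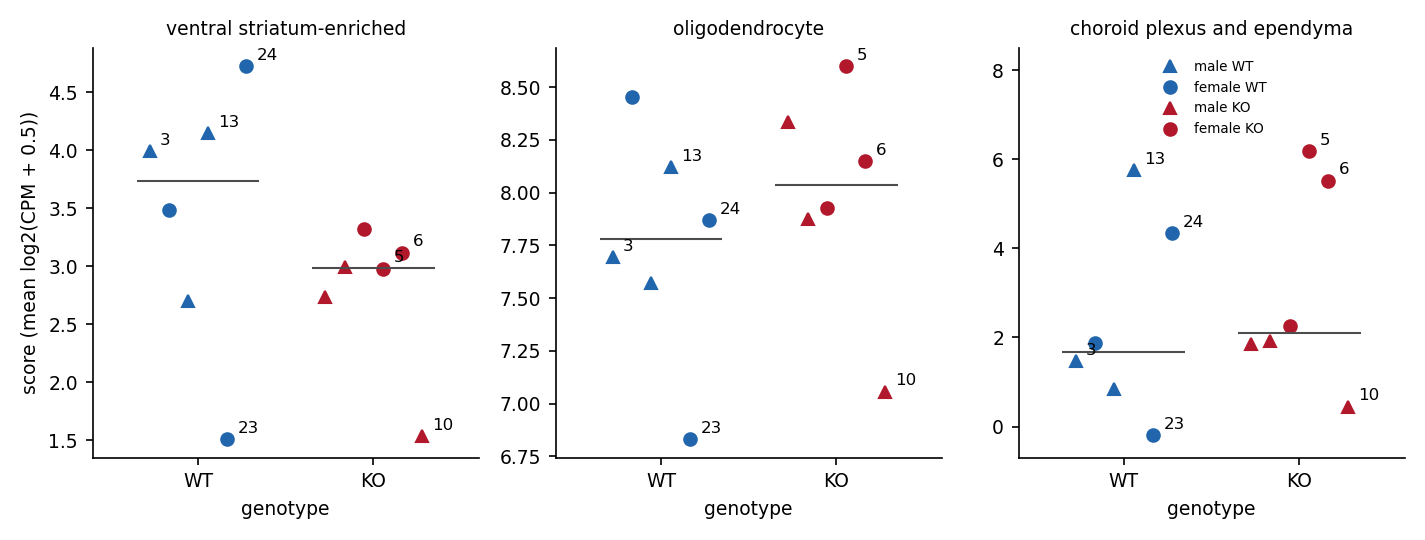
Scores (mean log2(CPM + 0.5)) of the ventral striatum-enriched, oligodendrocyte, and choroid plexus and ependyma lists in each library by genotype, with triangles for males, circles for females, a line at each median and selected mice numbered. WT mice 24, 13 and 3 lie highest for the ventral list at 4.72, 4.15 and 4.00, and mice 5, 13, 6 and 24 stand apart for choroid plexus.

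Among the other marker lists, 0 members were called in either fit. The cortical excitatory neuron genes had a median of -0.10 in the pooled fit and 0.17 without mice 10 and 23. Their pooled median was -0.82 without male KO mouse 10 and 0.90 without female WT mouse 23. Within the tables, all 12 were higher in male KO (median 0.97) and all 12 lower in female KO (median -1.33). All 13 oligodendrocyte genes were higher in KO, with a median of 0.23 in the pooled fit and 0.21 without mice 10 and 23, and with 0 of 13 at an unadjusted p under 0.05. That median was 0.06 without female WT mouse 23 and 0.41 without female WT mouse 11. Of 10 astrocyte genes 8 were lower, with a median of -0.08. The glutamate transporter Slc1a3 had -0.27 (-0.50 to -0.04) in the pooled fit and -0.23 (-0.48 to 0.02) without the 2 mice. Microglial and endothelial medians were 0.06 and 0.01, with the microglial gene Csf1r at -0.03 (-0.30 to 0.25).

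Choroid plexus and ependyma, which line the ventricle beside the striatum, varied widely among the libraries of both genotypes. Their score was 6.18 in female KO mouse 5, 5.76 in male WT mouse 13, 5.52 in female KO mouse 6 and 4.34 in female WT mouse 24, and at most 2.26 in the other 8. Ttr, the transthyretin made by choroid plexus, ran from 8.76 to 6230.5 CPM in KO and from 0.149 to 2618 in WT. The list median was -0.12 in the pooled fit, with a median interval of 2.44 to either side. Leaving out 1 library at a time moved this median between -0.86 (without female KO mouse 5) and 0.81 (without male WT mouse 13). Within the tables, all 9 tested genes were lower in male KO with a median of -2.98 and all 9 were higher in female KO with a median of 2.86. An unadjusted p under 0.05 held for 2 of the 9 in each table, and 0 were called. Over all 14523 genes, edgeR had 208 lower at that p in the male table and 203 higher in the female table. Of the 4 libraries of high score, WT mouse 13 belongs to the male table, and KO mice 5 and 6 and WT mouse 24 to the female table. Their part in the values within the tables was not tested.

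Acetate and acetyl-CoA enzymes, the pathway of the deleted gene, had 1 member called of 18 tested, Acss2, against 0.00723% of all genes. Acss2 is the deleted gene and the only call of the fit, so this share says nothing of the other members. The median of the list was 0.05, with 11 members higher and 7 lower. Acss1, the mitochondrial acetyl-CoA synthetase, was at 18.6 to 37.7 CPM in KO and 22.6 to 40.1 in WT. Its log2 fold change was -0.08 (95% interval -0.44 to 0.28). The ranges of the genotypes lay over each other.

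Acly, which makes cytosolic acetyl-CoA from citrate, had 204 to 358 CPM in KO and 213 to 355 in WT, and a log2 fold change of 0.07 (-0.27 to 0.41). The citrate carrier Slc25a1 had 0.12 (-0.12 to 0.36). Citrate synthase, Cs, was the tightest of these, at 257 to 278 CPM in KO and 249 to 271 in WT, with 0.05 (-0.09 to 0.18). The monocarboxylate transporter Slc16a1, which carries acetate, had 0.18 (-0.10 to 0.45). Acss3, the remaining family member, was low at a KO median of 3.19 CPM and had 0.28 (-0.95 to 1.52), an interval too wide to say more. The pyruvate dehydrogenase subunit Pdhb had 0.15 (0.00 to 0.30), and 0.11 (-0.03 to 0.26) without mice 10 and 23.

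Of the enzymes of ethanol and acetaldehyde oxidation, 8 of 11 passed the count filter and 0 were called, with a median of 0.03. Aldh2, the mitochondrial acetaldehyde dehydrogenase, was at 94.8 to 167 CPM in KO and 101 to 142 in WT, with 0.08 (-0.16 to 0.33). Catalase, Cat, which oxidizes ethanol in brain, had 0.02 (-0.21 to 0.26). Aldh1a1, a cytosolic aldehyde dehydrogenase, had 46.9 to 112 CPM in KO and 30.9 to 120 in WT, with 0.53 (0.08 to 0.98) in the pooled fit and 0.38 (-0.09 to 0.85) without the 2 mice. Adh1, Adh7 and Cyp2e1 did not pass the filter, with WT medians of 0.394, 0 and 0.181 CPM, where 3 counts are worth 0.207 to 0.513 CPM in these libraries.

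Acetyl-CoA feeds histone acetylation and lipid synthesis, and neither list had a called member. Of 26 histone acetylation writers, erasers and readers 10 were higher and 16 lower, and the median was -0.01, with the range from -0.17 to 0.16. The deacetylase Hdac5 had 0.00 (-0.23 to 0.23), Hdac11 had -0.08 (-0.23 to 0.08) and the bromodomain reader Brd2 had -0.03 (-0.24 to 0.19). Of 24 sterol and fatty acid synthesis genes 5 were higher and 19 lower, with a median of -0.09 in the pooled fit and -0.03 without mice 10 and 23. Hmgcs1, an early enzyme of sterol synthesis, had -0.11 (-0.61 to 0.40), and the desaturase Scd2 had 0.12 (-0.16 to 0.40).

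Signalling genes of the striatum gave 0 calls. The median over 17 dopamine and cAMP genes was 0.08, over 22 glutamate receptor genes -0.07 and over 12 GABA-A receptor genes -0.07. The AMPA receptor subunit Gria2 was at 616 to 954 CPM in KO and 599 to 985 in WT (-0.08, 95% interval -0.32 to 0.15). The obligatory NMDA receptor subunit Grin1 had 0.02 (-0.32 to 0.36), and Gabra4 had 0.13 (-0.31 to 0.57).

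Opioid peptides and receptors had a median of -0.25 over 6 genes, 4 of them lower. The median was -0.06 without male KO mouse 10, -0.39 without female WT mouse 23 and -0.27 without both. Pnoc, the nociceptin precursor, was at 0.742 to 4.37 CPM in KO and 0.933 to 9.73 in WT, with -1.07 (-2.37 to 0.23). Its receptor Oprl1 was at 27.3 to 47.2 CPM in KO and 28.8 to 59.1 in WT, with -0.37 (-0.78 to 0.05) in the pooled fit and -0.46 (-0.90 to -0.02) without mice 10 and 23. Oprm1, the mu receptor, did not pass the filter, with medians of 0.914 CPM in KO and 1.64 in WT.

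Genes induced by neuronal activity overlapped between the genotypes. Of 20 tested 0 were called, with 11 higher and 9 lower and a median of 0.01. Egr1 was at 212 to 260 CPM in KO and 152 to 329 in WT, with 0.01 (-0.38 to 0.41), and Homer1 had 0.08 (-0.26 to 0.41). Fosl2 had -0.50 (-0.99 to -0.01) and Gadd45b had 0.51 (0.02 to 1.00), and without mice 10 and 23 both intervals reached past 0, at -1.05 to 0.03 and -0.02 to 1.08.

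Clock genes had a median of 0.00 over 15, glucocorticoid response genes -0.00 over 9 and mitochondrially encoded genes 0.08 over 11, with 0 called. The repressor Nr1d1 had 0.27 (0.07 to 0.47) and the kinase Sgk1 0.44 (0.04 to 0.84) without mice 10 and 23, with an edgeR adjusted p of 0.99958 each. The 27 tested neighbours of Acss2 on chromosome 2 ran from -0.22 to 0.11 with a median of -0.03. Chmp4b had -0.04 (-0.20 to 0.12) and Trpc4ap -0.04 (-0.19 to 0.11). The 24 lists hold 306 distinct genes tested, of which 8 (2.61%) had an unadjusted p under 0.05 in the pooled fit, beside 1.5% of all genes, and 12 (3.92%) without the 2 mice, beside 2.4%.

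**Figure D4:**
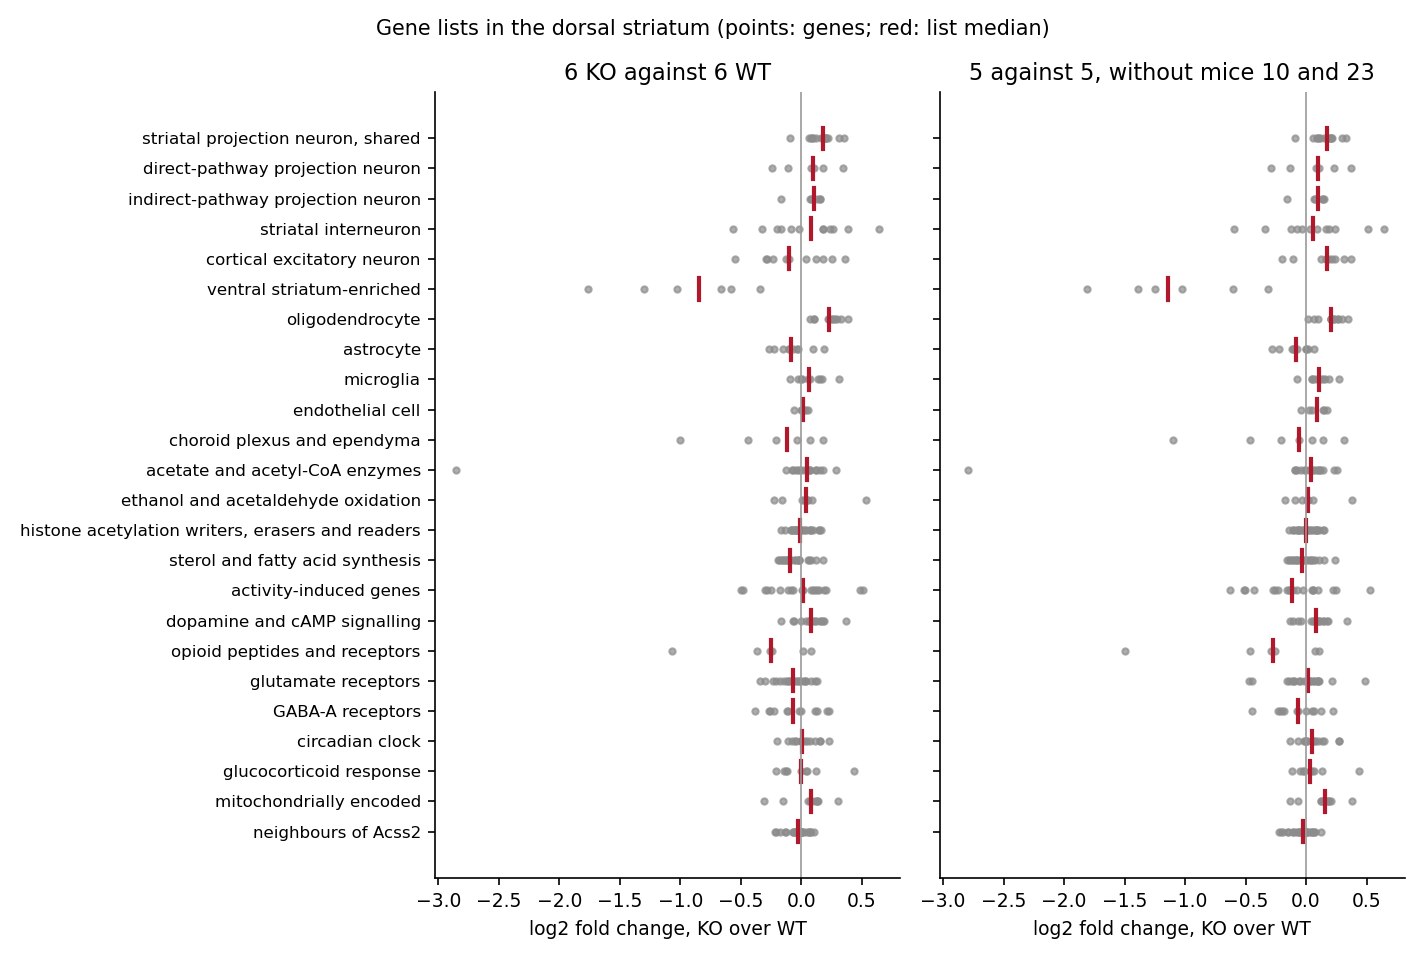
Log2 fold change of KO over WT for every tested gene of the 24 lists (grey points) with the list median (red), for all 12 libraries at left and without mice 10 and 23 at right. Acss2 lies alone near -2.85 and -2.80, and the ventral striatum-enriched list has medians of -0.85 and -1.14.

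The 19 genes with the next smallest p after Acss2, at a mean of at least 1 CPM, were not called, and their values are given as a description. Their unadjusted p ran from 0.000925 to 0.00999, and 8 were higher and 11 lower in KO, by 0.30 to 0.82 on the log2 scale. Col6a1, a collagen VI chain, was at 45.9 to 66.5 CPM with a median of 53.4 in KO and 62.2 to 105.8 with a median of 76.5 in WT, a log2 fold change of -0.52 ± 0.12 (SE). The highest WT library was male mouse 3, and the ranges overlapped slightly.

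The ranges of 4 of the 19 did not overlap between KO and WT, beside 7 of all 13824 genes (0.0506%), and 51 of 13898 genes (0.367%) had no overlap without mice 10 and 23. Mcm5, a subunit of the replicative helicase, was at 4.75 to 8.25 CPM in KO and 8.73 to 13.5 in WT (-0.75 ± 0.17). Reep4, an endoplasmic reticulum protein, was at 2.26 to 3.06 CPM in KO and 1.19 to 2.21 in WT (0.76 ± 0.19). Nsun6, an RNA methyltransferase, was at 8.05 to 10.5 CPM in KO and 5.20 to 7.90 in WT (0.45 ± 0.14).

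Gm20939, the other of the 4, had 2.67 to 4.85 CPM in KO and 1.33 to 2.23 in WT. These 4 genes had between 7 and 152 reads in a library, and each had an adjusted p of 0.99991. Others of the 19 were Adcyap1r1, the receptor of the peptide PACAP, at -0.37 ± 0.11, Gldc of glycine cleavage at -0.30 ± 0.08, Asl of the urea cycle at -0.50 ± 0.13, and the cyclin Ccna2 at -0.72 ± 0.21. Higher ones were the transcription factor Stat6 at 0.41 ± 0.11, the kinesin Stard9 at 0.39 ± 0.10 and the ADP-ribosyltransferase Parp14 at 0.48 ± 0.15. Syt5, a synaptotagmin of secretory vesicles, had -0.33 ± 0.10.

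In the 3 other regions fitted these genes were not called either. In the ventral striatum 2 of the 18 tested had an unadjusted p under 0.05, beside 7.31% of all genes there. The numbers were 3 of 19 beside 3.32% in the amygdala and 2 of 19 beside 2.69% in the dorsal hippocampus, and in each region 1 of them had the direction seen in the dorsal striatum. Whatever their p, 11 of 18, 10 of 19 and 7 of 19 had that direction. Mcm5 had -0.09 in the ventral striatum, -0.74 in the amygdala and -0.52 in the dorsal hippocampus, and Reep4 had -0.26, -0.31 and -0.21, the opposite sign to the dorsal striatum.

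**Figure D5:**
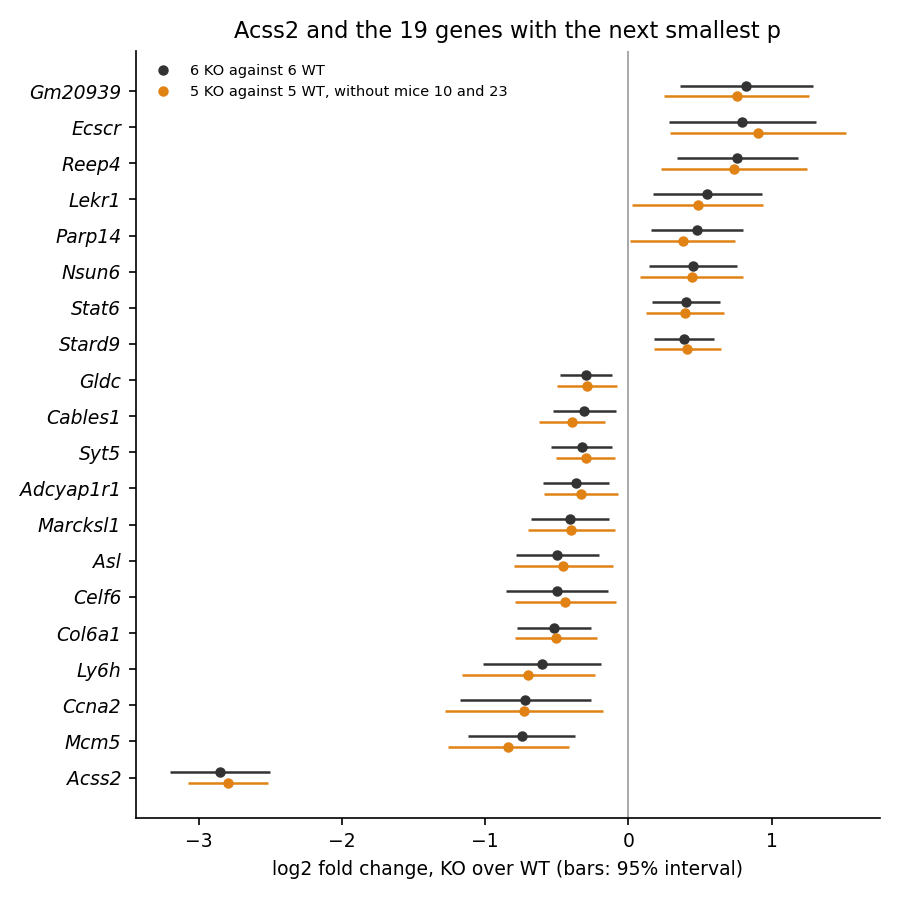
Log2 fold change of KO over WT with its 95% interval for Acss2 and the 19 genes with the next smallest p, in the fit of 6 against 6 (black) and of 5 against 5 without mice 10 and 23 (orange). Acss2 lies at -2.85 and -2.80, and the other 19, which were picked for their small p, lie within 1 of 0 in both fits.

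The KO difference was next compared between the tables. Of 14523 genes tested 0 were called by edgeR (0%) and 0 by DESeq2, and an unadjusted p under 0.05 was reached by 692 (4.76%) and 720, and the smallest adjusted p was 0.769 by edgeR. The 692 became 373 without mice 10 and 23, and leaving out 1 library at a time gave from 334 (without female WT mouse 23) to 1304 (without female WT mouse 24). The gene with the smallest p was Zfpm1 (FOG1, a GATA cofactor), with 1.04 in males and -0.64 in females (edgeR adjusted p = 0.769). It was at 18.8 to 31.4 CPM in male KO and 10.7 to 14.1 in male WT. In females it was at 10.6 to 14.1 in KO and 15.0 to 23.4 in WT, so the genotypes did not overlap within either table. How many of all genes did so was not counted, and Zfpm1 was picked for its small p. Its highest KO library was mouse 10 and its highest WT library mouse 23, and without them the difference went from 1.68 to 1.28 (edgeR adjusted p = 0.99981). It was followed by Akr1c14, an aldo-keto reductase that acts on steroids, with -1.25 and 0.62. Gm20559 came next, with -1.42 in males and 1.35 in females, at 0.148 to 2.21 CPM in KO and 0.622 to 1.66 in WT. Within each table Acss2 was the only call of 14523 genes (0.00689% in each). The interval of this difference lay within 1 of 0 for 51.3% of genes, and for the rest it reached beyond a factor of 2.

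The dorsal striatum was then set against the ventral striatum of the same 12 mice, the region that the series title names. The ventral striatum libraries scored 5.95 to 9.48 for the shared projection neuron genes. The lowest, from neither mouse 10 nor mouse 23, lay within the cortex range of 5.30 to 6.56. That library stayed in the comparison except where its mouse was left out. Of 14235 genes 0 were called for a difference in the KO effect by edgeR (0%) and 0 by DESeq2, and an unadjusted p under 0.05 was reached by 512 (3.6%) and 528. The 512 became 478 without the dorsal striatum libraries of mice 10 and 23, and leaving out 1 mouse at a time gave from 337 (without female KO mouse 6) to 920 (without male KO mouse 10). These fits had no term for the mouse, so the libraries of a mouse entered as separate ones. With the mouse as a block, edgeR had 716 genes at that p and 0 calls, with a smallest adjusted p of 0.923. The block fit without mice 10 and 23 had 1422 genes and 0 calls, with a smallest adjusted p of 0.241. For Acss2 the difference in the fit without a block was 0.02 (95% interval -0.59 to 0.63). The smallest p was that of the nuclear receptor Esrrg, with 0.38 in the dorsal and -0.84 in the ventral striatum (difference 1.21, 95% interval 0.60 to 1.82, edgeR adjusted p = 1). Esrrg was at 27.7 to 66.0 CPM in KO and 23.3 to 55.4 in WT dorsal striatum, so the groups overlapped. Tsta3, an enzyme of GDP-fucose synthesis, followed with -0.23 and 0.27, and Parp14 with 0.48 and -0.48. The interval of the difference was within 1 of 0 for 72.8% of genes.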

How the data were processed

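The authors deposited raw read counts per gene symbol, as whole numbers, in a table for each sex. The submitters' processing notes name STAR 2.5.2a, SAMtools 1.1, HTSeq 0.6.1, DESeq2, R 4.0.2 and the build GRCm38/mm10. The annotation and the strand setting are not given in the sources used here, so reads of overlapping or antisense genes cannot be told apart. Per the labels' protocols, poly(A) RNA from 300 ng of total RNA was prepared with NEBNext Ultra II. Replicates are separate mice, per the series' design. Xist and Ddx3y matched the labelled sex in all 12 libraries, and none of the 12 pairs of libraries within a sex and genotype group agreed within sampling noise (chi-square per gene at least 8.01). Of 55367 symbols, 53186 had a unique GENCODE M21 entry, which gave the positions.

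Counts were fitted with edgeR 4.0.16 (limma 3.58.1, R 4.3.3): TMM, filterByExpr (minimum count 10, minimum total 15), a quasi-likelihood test with table and genotype, and Benjamini-Hochberg adjustment over all genes tested with a threshold of 0.05. CPM are counts scaled to a library total of 1000000, and 3 counts were taken as the floor. Floors cover counting error only, since reads carry no molecular identifiers. The script was tested on simulated counts. The region difference was fitted over 24 libraries with no term for the mouse, which entered as a block only in alternatives. Its mouse numbers mark the same animal in both regions, per the labels. Deviations of the same mouse in the 2 regions correlated from -0.085 to 0.459 over 14863 genes, over 0.1 in 7 of 12 mice. KO and WT share no mouse numbers.

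Members and gene lists were chosen with earlier results of these data known. Named were Acss2, genes under the threshold, the 19 with the next smallest p at a mean of at least 1 CPM, the 3 with the smallest p of each difference test, and of each list examples from the 3 members with the highest mean CPM and from those with p under 0.05. Other list members were named for their known roles after their values were seen. Alternatives were DESeq2 1.42.0 (size factors, Wald test), no low-count filter, no table covariate, voom with sample weights, a robust fit, a cortical score as covariate, each table alone, the mouse as block, and leaving out each library (each mouse in the region difference). Choroid and ventral scores as covariates, and the block without mice 10 and 23, were added after the data were seen.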

Additional observations from a re-analysis of the deposited data

Results flagged for a closer look

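In 100 groups of 6 KO or 6 WT values (named genes, list scores and total counts), 19 had a highest or lowest library far from the nearest other, where chance alone would mark about 1 group in 20. Of these, 8 came from male KO mouse 10 and 6 from female WT mouse 23, which already stood apart in their striatal genes. The groups share libraries and some share genes, so the 19 cannot be read against chance. Mouse 10 was lowest of the KO libraries in the shared striatal projection neuron score (6.07), the direct-pathway score (3.33), the indirect-pathway score (2.78), the interneuron score (2.82), the dopamine and cAMP score (6.84), the opioid score (3.76), the ventral striatum-enriched score (1.54) and the microglia score (4.55). Mouse 23 was lowest of the WT libraries in the first 6 of these lists, at 5.50, 3.09, 1.59, 2.64, 6.37 and 3.63.

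The other 5 were single values. Female KO mouse 6 was lowest in Asl at 6.47 CPM, with 8.45 in the next KO library. Female WT mouse 11 was lowest in Syt5 at 96.4 CPM, highest in Esrrg at 55.4 CPM and highest in the microglia score at 5.48. Male WT mouse 13 had the highest total count, 14487778, with 6728214 in the next WT library.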

How the results depend on the processing

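Acss2 kept its sign in all 23 alternatives of the pooled fit (-2.97 to -2.72) and in all 19 without mice 10 and 23 (-2.88 to -2.72). It was called in 21 of the 23, with adjusted p up to 0.0822, and in all 19 of the others. With the male table alone, 3 against 3 with no other libraries in the fit, 0 genes were called and Acss2 had an adjusted p of 0.0506, and with the female table alone 0 were called and it had 0.0822, where fewer samples entered. In these fits 266 and 313 genes had an unadjusted p under 0.05. With no low-count filter and without mice 10 and 23, 2 of 28086 genes were called, Acss2 and Irs4 (-3.28, adjusted p 0.0412), which had 23 reads in the 5 KO and 229 in the 5 WT libraries fitted, 115 of them in female WT mouse 24. The cause was not tested. Leaving out each library in turn gave 1 to 1 call in the pooled fit (135 to 398 genes with an unadjusted p under 0.05). It also gave 1 to 1 in the fit without mice 10 and 23 and within each table, and 0 to 0 in the difference between tables. For the difference between regions, each mouse was left out with both its libraries, which gave 0 to 0. With the mouse as replicate block the region difference had 0 calls and 716 genes with an unadjusted p under 0.05, and 0 and 1422 without mice 10 and 23, so the block changed no call. Of the list medians, 5 moved beyond the spread between libraries: choroid plexus to 2.20 with the ventral score as covariate and to 2.85 in the female table alone, ethanol oxidation to -0.16 and 0.23 in the male and the female table alone, and histone acetylation to -0.11 in the female table alone. When 1 library was left out, 16 of the 24 list medians changed sign in at least 1 pooled fit and 8 kept it. Depth limits low genes: the floor of 3 counts was worth 0.207 to 0.513 CPM.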

Other observations

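In the pooled fit the KO and WT CPM ranges did not overlap for 7 genes, and 4 of these lie on chromosome 2, the chromosome of Acss2, where 7.92% of the tested genes with a position lie. The 7 were looked up after their values were seen, and Acss2 is 1 of the 4. Acot8, an acyl-CoA thioesterase of peroxisomes (chromosome 2, 164792765 to 164804882), was at 5.53 to 6.65 CPM in KO and 6.69 to 10.6 in WT, a log2 fold change of -0.38 (95% interval -0.65 to -0.10, edgeR adjusted p = 0.99991). Gpcpd1, a glycerophosphocholine phosphodiesterase (132529082 to 132587729), was at 113.5 to 152.0 CPM in KO and 101.1 to 113.3 in WT, with 0.22 (0.04 to 0.41). Nsun6 (14995131 to 15055069) is described above. Without mice 10 and 23, 51 genes did not overlap, and 5 of the 50 with a position lie on chromosome 2, which is 10% beside 7.91% of all tested. Csnk2a1, a casein kinase subunit (152226839 to 152281852), was the further gene, at 90.1 to 100.7 CPM in KO and 79.8 to 89.5 in WT.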
